A study of Mus musculus with 12 samples.

Results

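Photoreceptor fate transcription factors are the DNA-binding proteins, and 1 partner protein, that turn a newborn retinal cell into a rod and keep it one. The set was chosen by name and holds *Crx*, *Nrl*, *Nr2e3*, *Otx2*, *Rorb*, *Neurod1*, *Prdm1*, *Esrrb*, *Mef2d* and *Samd7*, 10 of the 56748 genes of the expression table, each found by its symbol. They were followed in 12 RNA sequencing libraries from retinas of 2-week-old mice, made to study the loss from rods of the tyrosine phosphatase Shp2, encoded by *Ptpn11*. Het mice carried RiboTag;Shp2fl/+ and KO mice carried RiboTag;Shp2fl/fl, and both groups also carried the i75 rod Cre, which is active in rods. The controls therefore had Cre, tagged ribosomes and 1 deleted *Ptpn11* allele in rods, although their sample titles call them wt. RNA was taken from whole retina and, after translating ribosome affinity purification (TRAP) from cycloheximide-perfused tissue, from HA-tagged ribosomes of rods, with 3 libraries for each genotype and fraction. Nothing states that the libraries came from separate animals, so p-values measure the spread between these samples.

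The deposited values are whole numbers that sum to between 14525527 and 14527992 in the 6 retina libraries and between 16263948 and 16265259 in the 6 rod libraries. The reads behind them were estimated at 9980000 to 19220000 in 5 retina libraries and 11900000 to 25300000 in the 6 rod libraries. *Ptpn11*, the targeted gene, was deposited at 2511, 2439 and 2431 for Het rods. The KO rods, at 1735, 2139 and 1971, lay entirely below. Het retina, at 2390, 2512 and 2125, and KO retina, at 2205, 2147 and 2466, overlapped. The log2 fold change of *Ptpn11* in KO rods was -0.26 ± 0.094 (SE, adjusted p = 0.0636), and the values cover the whole gene, so they do not show the deleted part alone.

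Libraries differed in lens RNA. The 8 lens markers summed to 0.000764% of the total in Het retina replicate 1 and to 5.12% in KO retina replicate 3, with *Cryaa* (322302) the most abundant there. In rods their sum ran from 2.46e-05% in Het replicate 1 to 0.0773% in KO replicate 3, and *Lim2* was at 0 in all 12 libraries. Pigment epithelium markers differed between retina libraries too, from 0.00388% in KO replicate 1 to 0.0979% in KO replicate 3, with 0.0482% in Het replicate 3. The part of lens and pigment epithelium RNA in the results was not tested.

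In the developing retina OTX2 commits cells to the photoreceptor and bipolar lineages, and CRX, its close relative, then switches on most photoreceptor genes. NRL and its target NR2E3 choose the rod over the cone fate, RORB acts upstream of NRL, and PRDM1 holds the bipolar programme down. NEUROD1, ESRRB and MEF2D act with CRX and NRL in differentiation and survival, and SAMD7 joins a polycomb complex that silences other cells' genes in rods.

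Levels between genes were compared as scaled values per kilobase of the longest coding transcript (GENCODE M21), with values scaled over all 12 libraries by the trimmed mean of M values (TMM). In Het rods *Nrl* stood first at 32820 ± 915 per kb (SD, n = 3), followed by *Crx* at 17110 ± 1000 and *Nr2e3* at 7065 ± 527. *Esrrb* came next at 5405 ± 461 per kb, above *Samd7* at 3400 ± 181. The middle of the order held *Otx2* at 2303 ± 82.6, *Neurod1* at 2101 ± 49.9 and *Mef2d* at 1457 ± 75.4 per kb. *Rorb* (869.6 ± 53.9 per kb) and *Prdm1* (108.6 ± 21.2 per kb) were lowest, and no neighbours in this order overlapped across the 3 libraries. In KO rods the order was alike except that *Neurod1* (2286 ± 50.6) stood above *Otx2* (2107 ± 157), a pair whose libraries overlapped.

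In whole retina the same genes were compressed into a narrower range. *Nrl* led with 8424 ± 795 per kb in Het retina and 8332 ± 375 in KO retina, and *Crx* followed with 5420 ± 394 and 5400 ± 533. *Nr2e3* (2081 ± 393 per kb in Het retina), *Esrrb* (1640 ± 462) and *Neurod1* (1529 ± 41.2) followed, each overlapping the next. *Prdm1* was again last at 56.31 ± 6.38 per kb in Het retina and 49.05 ± 1.64 in KO retina.

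The homeodomain proteins come first in the hierarchy. *Crx* had deposited values of 45466, 40772 and 42460 in Het rods against 19978, 17424 and 17152 in Het retina. Its values were 39820, 39051 and 40342 in KO rods against 18917, 19393 and 15260 in KO retina. Every rod library was above every retina library in both genotypes. The log2 fold change of *Crx* between rods and retina was 1.49 ± 0.10 in Het (SE, adjusted p = 4.4e-06) and 1.53 ± 0.11 in KO (adjusted p = 6.4e-06). Its relative *Otx2*, which is shared with bipolar cells, had 5295, 5161 and 4931 in Het rods and 3641, 3215 and 3379 in Het retina. In KO it had 4969, 4414 and 4717 in rods and 3578, 3737 and 2927 in retina, again with no overlap. The difference for *Otx2* was smaller than for *Crx*, with a log2 fold change of 0.84 ± 0.10 in Het (adjusted p = 9.6e-05) and 0.84 ± 0.12 in KO (adjusted p = 0.00028). With library size alone *Otx2* was at 0.42 in Het and 0.30 in KO, and was no longer called.

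*Nrl* and *Nr2e3*, which set the rod identity, were among the most rod-biased members. *Nrl* had deposited values of 69066, 70021 and 72718 in Het rods and 26453, 25020 and 21295 in Het retina. In KO its values were 66929, 70506 and 66428 in rods and 25168, 24139 and 21537 in retina. The log2 fold change without overlap of rods and retina was 1.8 ± 0.11 in Het (adjusted p = 2.5e-06) and 1.90 ± 0.10 in KO (adjusted p = 1.5e-06), placing *Nrl* at percentile 99.6 and 99.7 of all genes tested. For the orphan nuclear receptor gene *Nr2e3*, Het rods held 11619, 12094 and 13380 and Het retina 5032, 5758 and 3838. KO rods held 12411, 14804 and 13612 of *Nr2e3* and KO retina 4543, 3975 and 5032. Both genotypes were fully separated, with log2 fold changes of 1.61 ± 0.16 (adjusted p = 3.3e-05) and 1.96 ± 0.13 (adjusted p = 4.2e-06).

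The other nuclear receptors split. *Esrrb*, an estrogen-related receptor that supports rod survival, had 18814, 22029 and 19082 in Het rods and 8591, 10209 and 5554 in Het retina. In KO its values were 24967, 25514 and 24842 in rods and 8786, 7595 and 8694 in retina. These groups did not overlap, and *Esrrb* was 1.59 ± 0.21 log2 higher in Het rods than in Het retina (adjusted p = 0.00018) and 1.96 ± 0.11 higher in KO (adjusted p = 1.8e-06). *Rorb*, whose receptor also acts in amacrine and horizontal cells, showed little of this. Het rods, at 7414, 6803 and 6611, overlapped with Het retina, at 6770, 5273 and 6053, in deposited *Rorb* values. KO rods had 5396, 5902 and 6372 and KO retina 5847, 7153 and 4241, which overlapped too. The log2 fold change of *Rorb* was 0.46 ± 0.11 in Het (adjusted p = 0.00725) and 0.44 ± 0.17 in KO (adjusted p = 0.0489), in both cases under the fold limit of 0.5 used for a call. With scaling to library size alone it was 0.04 in Het and -0.10 in KO. In 1 fit over all 12 libraries it was 0.60 in Het (adjusted p = 0.00388), which made *Rorb* a call there. The median of all genes in that fit was 0.03, against -0.11 in the fit of the Het libraries alone. In Het *Rorb* did not pass the adjusted p without Het retina replicate 1 or 2. In KO it did not pass without KO retina replicate 1 or 3, or without any 1 of the KO rod replicates.

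*Neurod1*, a bHLH activator of photoreceptor genes that is also used by amacrine cells, differed little between the fractions. Het rods were deposited at 5047, 4896 and 4834 for *Neurod1*, and Het retina at 4996, 4684 and 4704. In KO they were 5433, 5406 and 5281 in rods and 5405, 5402 and 4795 in retina, with overlap in both genotypes. After TMM scaling *Neurod1* was 0.29 ± 0.09 log2 higher in Het rods (adjusted p = 0.0266) and 0.42 ± 0.10 higher in KO rods (adjusted p = 0.00515), below the fold limit, and with library size alone the sign turned to -0.13 and -0.12. *Neurod1* did not pass the adjusted p when any 1 Het library was left out in Het, or any 1 retina library in KO.

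*Prdm1*, the repressor of bipolar fate, was the least abundant member, at 579, 511 and 389 in Het rods and 389, 335 and 302 in Het retina. In KO it had 403, 346 and 405 in rods and 313, 286 and 280 in retina. The Het groups met at 389 and the KO groups did not overlap. The log2 fold change was 0.76 ± 0.18 in Het (adjusted p = 0.00514) and 0.76 ± 0.14 in KO (adjusted p = 0.00119), and it was 0.35 and 0.22, no longer called, with library size alone.

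The MADS-box factor gene *Mef2d* had deposited values of 6648, 7182 and 6458 in Het rods and 5042, 6021 and 3303 in Het retina. In KO it had 8290, 8369 and 8157 in rods and 5245, 4114 and 4820 in retina. Rod libraries were all higher, with log2 fold changes of 0.79 ± 0.20 (adjusted p = 0.0084) and 1.19 ± 0.12 (adjusted p = 3.6e-05). Het retina replicate 3 was low for *Mef2d*, and without it the log2 fold change in Het was 0.48, under the fold limit, and with library size alone it was 0.37, also not called. *Samd7*, the silencing partner, had 9569, 8681 and 9299 in Het rods and 4035, 3218 and 3511 in Het retina. Its KO values were 8050, 8330 and 8718 in rods and 3544, 3680 and 2884 in retina. With no overlap in either genotype, *Samd7* was 1.61 ± 0.11 log2 higher in Het rods (adjusted p = 4.4e-06) and 1.69 ± 0.11 higher in KO rods (adjusted p = 4.1e-06).

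**Figure D1:**
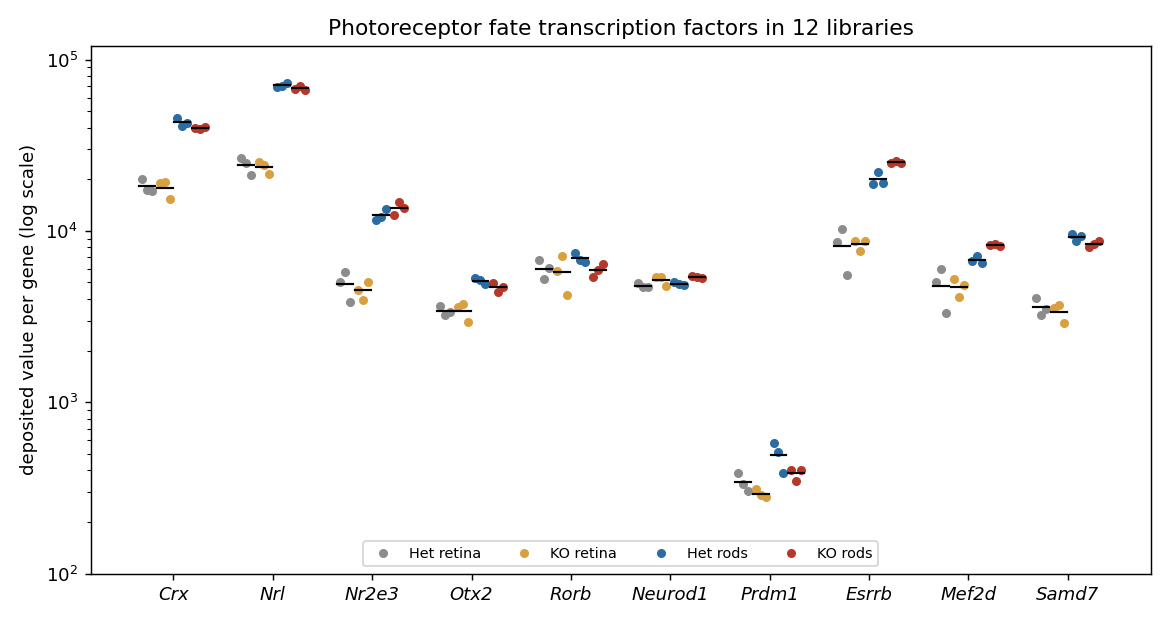
Deposited value of each member on a log scale in the 12 libraries, with points for libraries, colours for the 4 groups and black lines for group means. *Nrl* reached 72718 in Het rods, *Prdm1* fell to 280 in KO retina, and *Neurod1* lay between 4684 and 5433 in all groups.

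In Het, 8 of the 10 members were called higher in rods than in retina and 0 were called lower, where a call took an adjusted p under 0.05 together with a log2 fold change beyond 0.5 in size. Among the 16110 genes tested, 21.4% were called higher and 36.8% lower. In KO the same 8 members were called higher and 0 lower, against 25.7% and 36.5% of 16121 genes. The median log2 fold change of the members was 1.16 in Het and 1.36 in KO, and that of all genes was -0.11 and -0.02. After TMM scaling the rod and retina libraries of all 10 members did not overlap in Het, and those of 9 did not in KO, where 68.6% and 72.1% of all genes did not. *Rorb* was the exception in KO. Over all genes the count called was 9376 in Het, and 5335 without Het retina replicate 1, and it was 10033 in KO, and 5799 or 6413 without KO retina replicate 1 or 2.

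TMM scaling moved the median gene up by 0.41 log2 in Het and 0.53 in KO relative to scaling by library size alone. With library size alone *Crx*, *Nrl*, *Nr2e3*, *Esrrb* and *Samd7* were still called in Het, 5 members, and these and *Mef2d* in KO, 6 members. Fewer rods in a sample and less RNA per rod cannot be told apart in the retina libraries, which hold RNA from mixed cells.

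**Figure D2:**
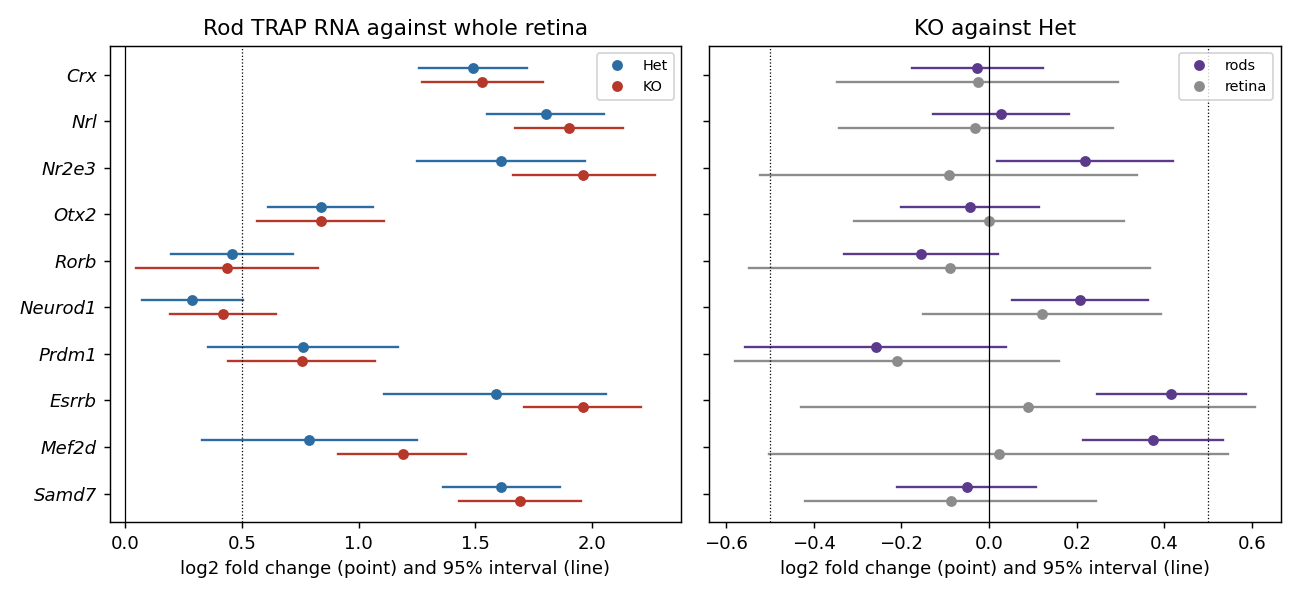
Log2 fold change of each member (points) with its 95% interval (lines), rods against retina in each genotype on the left and KO against Het in each fraction on the right, with dotted lines at the fold limit of 0.5. On the left *Nrl* is at 1.8 and 1.90, and *Rorb* (0.46 and 0.44) and *Neurod1* (0.29 and 0.42), whose sign turns for *Neurod1* in both and for *Rorb* in KO with library size alone, lie under the limit.

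The comparison of KO with Het rods asks whether these regulators changed when Shp2 was lost from rods. None of the 10 members was called in either direction by limma with the fold limit, a count of 0, where 11.2% of 13055 genes were called higher and 1.91% lower. An unadjusted p below 0.05 was reached by 4 members and by 5008 genes. The count over all genes, 1710, was 887 without Het rods replicate 1 and 1100 without KO rods replicate 2. Without the fold limit, 2 members, *Esrrb* and *Mef2d*, passed the adjusted p of 0.05, both higher in KO, and 0 were lower, where 15.7% of all genes passed as higher and 8.59% as lower. The median log2 fold change was 0.00 over the members and -0.01 over all genes.

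*Esrrb* passed the adjusted p but not the fold limit in KO rods, where its lowest library (24842) lay above the highest of Het rods (22029). Its log2 fold change was 0.42 ± 0.08 (95% interval 0.25 to 0.59, adjusted p = 0.00509), a fold of 1.33. *Mef2d*, also within the fold limit, was at most 7182 in Het rods and at least 8157 in KO rods, with a log2 fold change of 0.37 ± 0.07 (95% interval 0.21 to 0.54, adjusted p = 0.00579). When 1 model was fitted to all 12 libraries, neither passed (adjusted p = 0.22 for *Esrrb* and 0.257 for *Mef2d*), and 0 of the 13055 genes tested were called with the fold limit.

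*Neurod1* was higher in all KO rod libraries than in all Het rod libraries, with a log2 fold change of 0.21 ± 0.07 (adjusted p = 0.0521), short of the threshold, which it passed with no filter on low values (0.0443) and with rod-depleted genes removed (0.0347). *Rorb* was lower in all KO rod libraries (-0.16 ± 0.08, adjusted p = 0.177) and also failed. These 2 genes, *Esrrb* and *Mef2d* were the 4 members whose scaled rod libraries did not overlap between genotypes, and 44.0% of all genes did not overlap either. *Crx* did not overlap in the deposited values but did after TMM scaling, and its log2 fold change was -0.03 with a 95% interval of -0.18 to 0.12.

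*Nrl* differed by 0.03 (95% interval -0.13 to 0.18) and *Otx2* by -0.04 (-0.20 to 0.11) on the log2 scale. *Samd7* was at -0.05 (-0.21 to 0.11). The intervals of *Crx*, *Nrl*, *Otx2* and *Samd7* held no difference larger than 0.21 log2 before the GC trend was removed, and with it removed they reached 0.21, -0.34, 0.30 and 0.27. *Nr2e3* (0.22, 95% interval 0.02 to 0.42, adjusted p = 0.101) and *Prdm1* (-0.26, 95% interval -0.56 to 0.04, adjusted p = 0.186) were less tightly bounded. *Nr2e3* passed the adjusted p with no filter on low values (0.24, adjusted p = 0.0272), and *Prdm1* passed it without Het rods replicate 3 (-0.43, adjusted p = 0.0412).

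The GC content of transcripts moved with the genotype in rods. The median log2 fold change of all genes ran in steps over 10 equal bins of GC content, from -0.28 in the lowest bin (up to 41.6%) to 0.69 in the highest (from 57.6%). *Mef2d* (55.0% GC), *Esrrb* (54.9%) and *Nrl* (54.4%) lay in bin 8, whose median was 0.28. *Esrrb* was 0.14 and *Mef2d* 0.09 above that median, and *Nrl* was at -0.25 relative to it. *Neurod1* (43.6% GC) stood 0.45 above the median of its bin, the largest distance among the members.

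With the GC trend of each library removed, *Esrrb* was at 0.14 ± 0.058 (SE, adjusted p = 0.143) and *Mef2d* at 0.09 ± 0.062 (adjusted p = 0.405), no longer past the threshold. *Neurod1* was then at 0.50 ± 0.075 (95% interval 0.34 to 0.67, adjusted p = 0.00326) and was the 1 member called, where 276 of 12907 genes were called higher and 105 lower. *Nrl* turned to -0.21 ± 0.059 (95% interval -0.34 to -0.08, adjusted p = 0.0466), within the fold limit. *Crx*, *Otx2*, *Rorb* and *Samd7* changed sign as well, to values between 0.08 and 0.17, none past the threshold. The median of all genes moved from -0.01 to 0.07 with this removal.

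**Figure D3:**
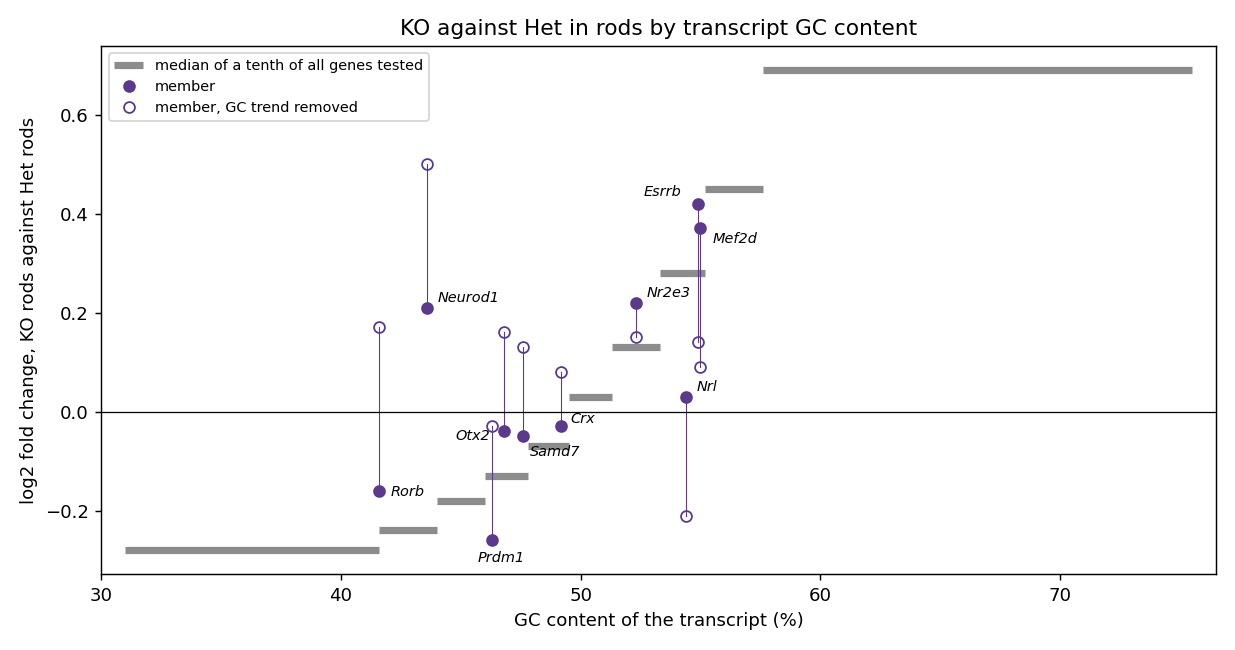
Log2 fold change between KO and Het rods (vertical axis) against transcript GC content in percent (horizontal axis), with grey bars for the median of all genes in each of 10 GC bins, filled points for the members and open points for the members after removal of the GC trend. The bars run from -0.28 to 0.69, and removal of the trend moved *Esrrb* from 0.42 to 0.14 and *Neurod1* from 0.21 to 0.50.

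In whole retina no difference between genotypes passed the test for any member. The count of members called by limma was 0, as was that over all 16863 genes (0%), and 0 members and 140 genes had an unadjusted p below 0.05. Without replicate 1 of Het retina or of KO retina, 1 gene was called. The log2 fold changes ran from -0.21 for *Prdm1* to 0.12 for *Neurod1*, with a median of -0.03 against 0.00 over all genes. After TMM scaling *Neurod1* (higher in KO) and *Prdm1* (lower) were the 2 members whose libraries did not overlap, against 3.52% of all genes. Het retina varied most in *Esrrb* and *Mef2d*, with an SD of 0.43 log2 for each, and replicate 3 held the lowest value of both and of *Nr2e3*. The SD of these 2 genes was 0.24 and 0.23 with the GC trend removed. That of *Nr2e3* and *Samd7* fell as well, and that of every other member rose. *Neurod1* went from 0.04 to 0.24 and *Prdm1* from 0.16 to 0.27, then the largest. Without that removal the 95% interval of *Esrrb* in retina, -0.43 to 0.61, held the difference seen in rods.

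An interaction term, fitted to all 12 libraries, compared the KO effect in rods with that in retina. The count of members called by limma was 0 and the count over 17192 genes was 0 (0%), and 0 members and 603 genes had an unadjusted p below 0.05. Without Het rods replicate 3, 1 gene was called. The difference was largest for *Mef2d* (0.25 ± 0.24, adjusted p = 0.807), *Esrrb* (0.22 ± 0.24, adjusted p = 0.816) and *Nr2e3* (0.21 ± 0.21, adjusted p = 0.808). *Esrrb* and *Mef2d* are thus not shown to respond differently in rods and in whole retina, of which rod RNA is a part.

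The members work with cofactors and other regulators, of which 27 were listed. In Het, 8 of 27 tested were higher and 8 lower in rods than in retina, beside 21.4% and 36.8% of all genes. In KO, 13 of 26 tested were higher and 7 lower, beside 25.7% and 36.5%. Among the highest in level, *Rora*, a paralog of *Rorb*, was at 0.86 in Het and 0.78 in KO, and *Mef2c*, a paralog of *Mef2d*, at 1.47 and 1.49. *Tbx2* (-4.97 in Het), *Six3* (-4.63) and *Six6* (-3.88), which act in other retinal cells, were the lowest of this list. In KO rods against Het rods, 8 of 24 tested cofactors were called higher and 0 lower with the fold limit, beside 11.2% and 1.91% of all genes, with a median of 0.20 against -0.01 for all genes. Without the fold limit 10 passed the adjusted p, of which *Rora* was lower (-0.32, adjusted p = 0.0277). *Samd11*, the partner of *Samd7* in the same polycomb complex, went from 2241, 2977 and 2562 in the Het rod libraries to 4863, 5891 and 4684 in those of KO rods, with no overlap. Its log2 fold change was 1.07 ± 0.13 (adjusted p = 0.00255), while *Samd7* stayed at -0.05. *Esrra* (1.68) and *Rax* (1.14), a homeobox gene of the early eye field, rose most. The 8 risen cofactors all had a GC content between 56.8% and 61.8%, and with the GC trend removed 3 were called, *Samd11* (0.61, adjusted p = 0.00111), *Esrra* (0.95, adjusted p = 0.00644) and *Rax* (0.59, adjusted p = 0.0329). Without the fold limit *Fiz1* then also passed as lower (-0.47, adjusted p = 0.0102). *Mef2c* (0.24, adjusted p = 0.0361) and *Thrb* (0.28, adjusted p = 0.0373) passed as higher.

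Genes that CRX and NRL activate in rods followed the members. All 38 listed were higher in rods than in retina in both genotypes, beside 21.4% of all genes in Het and 25.7% in KO. Their median was 1.65 in Het and 1.86 in KO. In KO rods against Het rods, 6 of the 38 were called higher and 0 lower, beside 11.2% and 1.91% of all genes, with a median of 0.18, led by *Tulp1* (0.81), *Pde6g* (0.69) and *Reep6* (0.67). These 6 had a GC content between 53.9% and 62.0%, and 0 of the 38 were called by limma with the GC trend removed, where 17 had passed the adjusted p without the fold limit before, 3 of them lower in KO.

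Cone genes that NR2E3 and NRL keep down in rods went the other way between fractions. In Het, all 12 tested of 13 were lower in rods, beside 36.8% of all genes, with a median of -1.11. In KO 11 of 12 were lower, beside 36.5%, with a median of -0.94. *Opn1sw*, the blue cone opsin gene, was at -1.08 ± 0.19 in Het and -0.81 ± 0.10 in KO. In KO rods against Het rods 0 of 12 were called by limma and 0 passed the adjusted p, with *Opn1sw* at 0.31 (adjusted p = 0.221), and the 8 cone markers summed to between 0.0290% and 0.0470% of the total for Het rods, a range that holds the KO rod sums of 0.0386% to 0.0418%.

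Fate factors of other retinal cells were low in rod RNA, in contrast to the members. Over all genes, 36.8% were called lower in rods in Het and 36.5% in KO. Of the bipolar factors 10 of 11 tested were lower in rods in Het, with a median of -4.60, and *Neurod4* was at -5.40. The exception was *Prdm8*, at 395, 521 and 415 in Het rods against 388, 511 and 359 in Het retina, and it was called higher in KO (0.60 ± 0.13, adjusted p = 0.00379). All 11 tested amacrine and horizontal factors and all 8 tested ganglion cell factors were lower in Het rods, with medians of -4.51 and -3.99. Of the progenitor and Müller cell factors 15 of 16 were lower, with a median of -4.25, and *Rax* (-0.16) was not called in Het but was called higher in KO (0.99, adjusted p = 0.00285). In KO against retina the lower counts of these 4 lists were 10 of 11, 10 of 10, 9 of 9 and 14 of 16. Between KO and Het rods, 0 of 6 bipolar, 0 of 3 amacrine and horizontal and 0 of 3 ganglion cell factors were called by limma at any adjusted p below 0.05, and 2 of 7 progenitor and Müller factors were higher (*Notch1* and *Rax*). With the GC trend removed *Notch1* was at 1.29 (adjusted p = 0.0984) and *Rax* was the 1 still called.

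Cell type markers gave the makeup of the fractions in which the members were measured. Bipolar markers summed to at most 0.0332% in rods, nearly all of it *Prkca*, against at least 0.116% in retina. *Prkca* overlapped between the fractions, at 5125, 4111 and 3721 in Het rods and 5929, 4174 and 5181 in Het retina. Of the 10 bipolar markers, 9 were called lower in rods in each genotype. The source of *Prkca* RNA in rods was not tested. The 10 Müller markers made up at most 0.0192% in rods, led by *Glul*, with *Sox9* at 0 in Het rods replicate 1. The sums in rods were at most 0.00583% for amacrine, 0.000842% for horizontal and 0.00237% for ganglion cell markers, with *Onecut1* at 0 in the 3 Het rod libraries. Markers of the pigment epithelium, microglia and vessels summed to at most 0.00291%, 0.00118% and 0.000935% in rods. In rods against retina every list but the rod markers had a median below -0.9 in both genotypes, and between KO and Het rods 1 Müller marker (*Apoe*), 1 amacrine marker (*Slc6a9*) and 0 of the 9 bipolar markers were higher, and the 1 microglia marker tested of 8 (*Lcp1*, -3.93) was lower. None of these 3 calls was kept with the GC trend removed (*Apoe* from 1.04 to 0.42, adjusted p = 0.261, *Slc6a9* from 0.72 to 0.27, adjusted p = 0.224, and *Lcp1*, whose fold changed little, -3.74, adjusted p = 0.0715).

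Over the 12 libraries, which share their fraction and genotype structure, *Crx* was most alike in pattern to *Pde6b* (Pearson r of log2 values 0.9992), *Slc24a1* (0.9986) and *Samd7* (0.9986), out of 11344 genes. *Nrl* was nearest to *Nxnl1* (0.9993), *Gnb1* (0.9984) and *Cdr2* (0.9983). *Nr2e3* was near to *Rbp3* (0.9973) and *Ap2a2* (0.9969). These values describe the step between fractions, and no p-value is attached to them.

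All 10 members were also compared in their upstream sequence, from the RefSeq promoter table of build GRCm38.p6, which gave 15 start sites for them. Windows of 200 bases that end 15 bases before the start were searched on both strands for TAATCC (bound by CRX and OTX2), TGCTGA (part of the NRL site), AGGTCA (a nuclear receptor site) and CAGATG (an E-box of NEUROD1). TAATCC was in 3 of the 15 member windows, 1 each of *Crx*, *Otx2* and *Samd7*, and in 4.96% of 32817 windows of the same length. TGCTGA was found for *Otx2*, *Rorb* and *Neurod1* (13.2% of all windows), CAGATG for *Otx2* (11.7%) and AGGTCA for 0 members (11.4%). The *Crx* and *Samd7* windows are shown because this pair was strongly rod-biased, alike in pattern and held TAATCC, which appears in capitals as its reverse complement. The *Crx* window lies on the minus strand at chr7:15879971-15880170 and the *Samd7* window on the plus strand at chr3:30746078-30746277, each upstream of the first exon.
Crx: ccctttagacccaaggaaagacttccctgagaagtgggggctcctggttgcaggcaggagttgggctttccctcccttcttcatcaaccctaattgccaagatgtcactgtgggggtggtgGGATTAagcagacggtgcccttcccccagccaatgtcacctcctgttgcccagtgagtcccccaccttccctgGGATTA
Samd7: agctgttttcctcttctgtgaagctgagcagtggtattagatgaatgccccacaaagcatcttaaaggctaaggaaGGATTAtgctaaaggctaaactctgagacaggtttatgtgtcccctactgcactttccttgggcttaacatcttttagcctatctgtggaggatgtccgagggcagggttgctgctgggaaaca
*Crx* held the motif at 94 and at 21 bases before its start and *Samd7* at 139. A match describes letters in a window and was not tested for binding.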

How the data were processed

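The deposited table holds, per gene and library, a whole-number signal. That the authors scaled each library by its own factor before rounding is inferred from the near-equal totals and the spacing of values, and is not stated. The submitters' processing notes name CASAVA 1.8.2, HISAT2, DESeq2, edgeR and GRCm39, without saying what each was used for. No column of other samples was present.

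A gene was tested if 3 or more of the libraries compared held a value of about 10 and all of them together held 15, which all 10 members met in each comparison. Values were scaled by TMM, raised by 2, log2-transformed and tested with limma 3.58.1 (R 4.3.3), trend and robust options, on the groups compared, with Benjamini-Hochberg adjustment over all genes. A call took an adjusted p under 0.05 together with a log2 fold change beyond 0.5 in size (no fold limit for the interaction). Fold changes are on the log2(value + 2) scale. The design foresaw a count model for raw counts and limma for scaled values. A test of 3 against 3 libraries allows no exact permutation p below 0.1, so none is given. The GC content and length are those of the longest coding transcript in GENCODE M21 (GRCm38), and the trend was removed per library with a spline of 6 degrees of freedom.

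Rod and retina libraries of 1 number deviated together in Het (r = 0.47, 0.41 and 0.25) but not throughout in KO (0.33, -0.01 and 0.18). The members and lists were chosen with earlier results of these data known. Besides the members, the genes named are up to 4 of each list with the highest mean scaled value, up to 3 called of each list with the largest change per comparison, *Ptpn11*, and the 3 genes most similar in pattern to each of *Crx*, *Nrl* and *Nr2e3* among genes with a mean of at least 100. Some markers at 0 are named as well (*Lim2*, *Sox9* and *Onecut1*), as are *Fiz1* and *Thrb*, which passed the adjusted p with the GC trend removed. The limma procedure was also run on simulated counts, drawn with the same relative spread for every gene and without a GC trend or library factors. The deposited values carry a GC trend in rods, which the simulation therefore does not cover.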

Additional observations from a re-analysis of the deposited data

How the results depend on the processing

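In rods against retina, the direction of *Crx*, *Nrl*, *Nr2e3*, *Otx2*, *Prdm1*, *Esrrb*, *Mef2d* and *Samd7* was kept under every alternative run. The number of members called, 8 in each genotype, was 5 in Het and 6 in KO with library size alone, where *Neurod1* turned to -0.13 in Het and -0.12 in KO and *Rorb* to -0.10 in KO. In 1 fit over all 12 libraries 9 members were called in Het, with *Rorb* at 0.60, and 8 in KO. With the GC trend removed neither *Rorb* nor *Neurod1* passed the adjusted p in Het, and both passed it in KO. *Rorb* did not pass it in KO with relative log expression scaling, with 0.5 added before the log in place of 2, or with the replicate number as a block. Of the 16110 genes tested in Het, 4546 were higher and 5672 lower in that fit, with a median of 0.03. The Het libraries alone gave 3453 and 5923, with a median of -0.11. Without each replicate in turn, 7 to 8 members were called in Het and 8 to 8 in KO. With library size alone 1157 genes were higher and 7417 lower in Het, where TMM gave 3453 and 5923, and 1125 higher and 7863 lower in KO, where TMM gave 4144 and 5889. Over all genes the counts called were 9376 in Het and 10033 in KO, with 5335 in Het without Het retina replicate 1 and 5799 and 6413 in KO without KO retina replicates 1 and 2.

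In KO rods against Het rods 0 members were called, and 1 with the GC trend removed. The GC trend removed also turned *Crx* to 0.08, *Nrl* to -0.21, *Otx2* to 0.16, *Rorb* to 0.17 and *Samd7* to 0.13. The median of all genes was 0.07 there. *Nrl* was at -0.06 with library size alone and at -0.03 in 1 fit over all 12 libraries. Over all genes 1710 were called, 381 with the GC trend removed, 0 in the fit over 12 libraries, 887 without Het rods replicate 1 and 1100 without KO rods replicate 2. With library size alone 1202 genes were higher and 586 lower, where TMM gave 1460 and 250. Without each replicate in turn *Crx* ran from -0.07 to 0.01 and *Nrl* from -0.03 to 0.07.

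In retina, *Mef2d* turned to -0.02 with the GC trend removed, and *Otx2* to 0.03 with it removed, 0.01 with relative log expression (RLE) scaling, 0.02 in the fit over 12 libraries and 0.01 with no filter. Without each replicate in turn *Crx* ran from -0.05 to 0.06, *Nrl* from -0.11 to 0.02, *Nr2e3* from -0.24 to 0.04, *Otx2* from -0.04 to 0.08, *Rorb* from -0.23 to 0.09, *Esrrb* from -0.15 to 0.28 and *Mef2d* from -0.21 to 0.21. The count of genes called, 0, was 1 without replicate 1 of Het retina or of KO retina.

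For the difference between rods and retina, the GC trend removed gave *Neurod1* 0.21, *Otx2* 0.02, *Prdm1* 0.02, *Rorb* 0.07 and *Samd7* 0.08, all of opposite sign to before. With no filter *Crx* was at 0.05, *Neurod1* at 0.14, *Nrl* at 0.11, *Otx2* at 0.00, *Prdm1* at 0.00 and *Samd7* at 0.08. *Neurod1* was at 0.03 and *Nrl* at 0.00 with RLE scaling, and *Neurod1* at 0.01 with library size alone. Without each replicate in turn *Crx* ran from -0.14 to 0.08, *Nrl* from -0.06 to 0.10, *Otx2* from -0.20 to 0.04, *Rorb* from -0.28 to 0.12, *Neurod1* from -0.04 to 0.14, *Prdm1* from -0.31 to 0.00 and *Samd7* from -0.11 to 0.15. The count of genes called, 0, was 1 without Het rods replicate 3. The cause of these changes was not tested.

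With the replicate number as a block, 8 members were called in Het rods against retina, 8 in KO rods against retina and 0 in the other comparisons, and the block changed no call of a member. Samples of 1 number did not all deviate together between KO rods and KO retina (r = 0.33, -0.01 and 0.18), between KO and Het rods (0.18, 0.03 and 0.03) or between KO and Het retina (0.40, -0.59 and -0.14). The block together with the GC trend removed, in rods against retina, was chosen after seeing the data.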
